A study of Homo sapiens with 4 samples.

Results

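Antisense long noncoding RNAs are transcribed from the strand opposite a named gene, and RefSeq names them after that gene with the suffix -AS and a digit. The 98 expressed ones are described here in RPE1, a telomerase-immortalised human cell line from the pigment epithelium of the retina, of 688 such symbols and 25027 symbols or unmatched identifiers in the deposited gene tables. They were chosen by 2 measured or annotated values, an average of 1 FPKM or more across the 4 libraries (mapped fragments, scaled to transcript length and to library depth) and a spliced length of at least 300 nt. The level limit left out 590 symbols, and the length limit was failed by 1 symbol, EPC1-AS1 at 298 nt, which was below the level limit too. The RefSeq gene annotation classed 97 of the 98 as lncRNA and 1 as antisense RNA.

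The study used RNA interference against SAF-A, the nuclear RNA- and chromatin-binding protein encoded by HNRNPU. All groups were RPE1 cells given 10 nM of a Stealth siRNA, either a negative control or one against SAF-A, and collected 24 h or 48 h later. A single SAF-A siRNA sequence was used, and each of the 4 groups had 1 library, so differences have neither a replicate check nor a p-value. After removal of ribosomal RNA, total RNA was sequenced as 50-base single-end reads. HNRNPU went from 91.2 FPKM in the control to 10.4 in the knockdown at 24 h, and from 84.6 to 9.24 FPKM at 48 h. The mapped reads behind the values, derived from coverage and FPKM, were 28083822 (control) and 30701282 (SAF-A) at 24 h, and 28586051 and 1216740 at 48 h, so the SAF-A 48 h library was far shallower than the other 3 and every value from it is imprecise. The epithelial keratins KRT8 and KRT18 and the intermediate filament gene VIM, typical of mesenchymal and cultured cells, were present in every library. The telomerase gene TERT reached at most 0.908 FPKM. Of the genes of differentiated retinal pigment epithelium, RPE65 and TTR were listed at 0 in all 4 libraries. RLBP1, TYR, PMEL and BEST1 reached at most 0.0230, 0.0188, 0.232 and 0.969 FPKM, while MITF and OTX2 were above 2 FPKM in each library. KRT18 went from 229 FPKM in control 48 h to 23.3 in SAF-A 48 h. PTPRC, PECAM1, COL2A1 and ALB, markers of blood, endothelium, cartilage and liver, reached at most 0.347 FPKM, the neuronal gene SNAP25 at most 0.473, and CD68, a lysosomal gene high in macrophages, 7.0 to 11.3 FPKM. In such bulk samples fewer cells of a type and less RNA per cell cannot be told apart.

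Many antisense RNAs share a start region with their sense gene, because promoters of mammalian genes are often transcribed in both directions. Others lie inside the sense gene or across its end. Some act on the neighbouring gene, some act elsewhere in the cell, such as OIP5-AS1, which binds the microRNA miR-7, and many have no known role. Nuclear noncoding RNAs of this kind are commonly short-lived substrates of the RNA exosome and its nuclear cofactors.

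The library kit named in the labels and the deposited files do not state whether strand was kept. Without strand, reads from exon bases that an antisense RNA shares with a gene on the opposite strand cannot be assigned to either, so the arrangement of each pair was worked out first. Exons of 59 antisense RNAs overlapped an exon on the opposite strand, by a median of 10.6% of their exonic bases, and 39 had no such overlap. The overlap reached 50% in 5: PCNA-AS1 at 100%, TTN-AS1 at 70.4%, A1BG-AS1 at 59.9%, HIF1A-AS2 at 59.5% and AGAP2-AS1 at 58.6%. In 53 of the 59 the overlapped exons included those of the sense partner, the gene named before the hyphen.

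A sense partner was found in the files for 96 of the 98 (none was matched for C10orf95-AS1 and PRR34-AS1). In 47 pairs the nearest starts of the 2 genes lay within 1000 bases on opposite strands, an arrangement called head to head. Transcription ran apart from separate starts in 20 of these, and in 27 the antisense start lay downstream of the partner's start. The starts were within 300 bases of each other in 25 pairs and within 100 bases in 10. Another 30 antisense RNAs lay partly across the partner, 6 inside it and 13 beside it.

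The windows below show 3 head-to-head pairs that return in the results, because they show how little sequence can separate the starts of the genes of a pair. Each is on the sense partner's strand, 5′ to 3′, from hg19. In the first 2 the capitals are the bases from the antisense start to the partner's start, with the antisense RNA reading out to the left and the partner to the right. In the last the starts cross, and the capitals are the bases in the first exons of both genes.
ZBED5-AS1 and ZBED5: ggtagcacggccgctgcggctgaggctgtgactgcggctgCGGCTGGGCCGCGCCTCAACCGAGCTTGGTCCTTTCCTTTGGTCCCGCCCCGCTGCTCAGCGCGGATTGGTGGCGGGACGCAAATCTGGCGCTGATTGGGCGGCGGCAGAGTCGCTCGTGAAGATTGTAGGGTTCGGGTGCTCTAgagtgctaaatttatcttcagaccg
TRIM52-AS1 and TRIM52: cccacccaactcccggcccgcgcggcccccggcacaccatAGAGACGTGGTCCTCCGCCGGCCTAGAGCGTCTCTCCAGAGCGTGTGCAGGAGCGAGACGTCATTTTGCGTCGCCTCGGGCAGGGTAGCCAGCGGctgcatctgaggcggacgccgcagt
SCAMP1-AS1 and SCAMP1: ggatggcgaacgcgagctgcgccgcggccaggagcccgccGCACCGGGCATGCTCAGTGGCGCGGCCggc

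The ZBED5-AS1 window is chr11:10879595-10879804 on the minus strand, with starts 144 bases apart and 16 CpG pairs among the capitals. The TRIM52-AS1 window is chr5:180688094-180688253 on the minus strand, with starts 94 bases apart and 11 CpG pairs. The SCAMP1-AS1 window is chr5:77656299-77656368 on the plus strand, and its 27 capital bases hold 3 CpG pairs. All 3 stretches of capitals had over 65% G or C.

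RefSeq promoters (GRCh38.p14, 300 bases around a start) were matched for 79 of the 98 antisense RNAs, with 101 starts. Their median G and C content was 66.7%, with a median of 24 CpG pairs in 300 bases, against 58.7% and 14 over all 35116 promoters and 65% and 26 over those of the tested genes. Read on both strands, TATAAA occurred in 5.94% of the 101 and 11.5% of all promoters, CCAAT in 41.6% and 34.6%, GGGCGG in 58.4% and 45%, and GGAAGTG in 6.93% and 11.2%. Promoters of the tested genes held these motifs at 6.22%, 35.8%, 67% and 14.9%. The antisense promoters were thus as rich in G and C as those of the tested genes, with lower shares holding GGGCGG or GGAAGTG. Promoters of the sense partners were similar, with GGGCGG in 60.7% and GGAAGTG in 7.41% of 135. The lower shares are therefore not particular to the antisense RNAs. Among the antisense starts, GGAAGTG occurred in 6 of 42 head-to-head starts (14.3%) and 1 of 59 others (1.69%), which are small counts. GGGCGG occurred in 64.3% and 54.2%. A match is a count of letters and not a bound site.

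Most of the antisense RNAs were scarce. Their mean level had a median of 2.06 FPKM, against 10.0 FPKM for all 11053 tested genes (at least 300 nt and a mean of at least 1 FPKM), and ran from 1.01 to 31.8 FPKM. A mean of 2 FPKM was reached by 51, of 5 by 21, of 10 by 12 and of 20 by 4. The spliced length had a median of 1899.5 nt and ran from 367 to 8492 nt, and 14 had a single exon block. EPB41L4A-AS1, TTC28-AS1 and RAB11B-AS1 contained an annotated small RNA (SNORA13, MIR3199-2 and MIR4999).

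**Figure D1:**
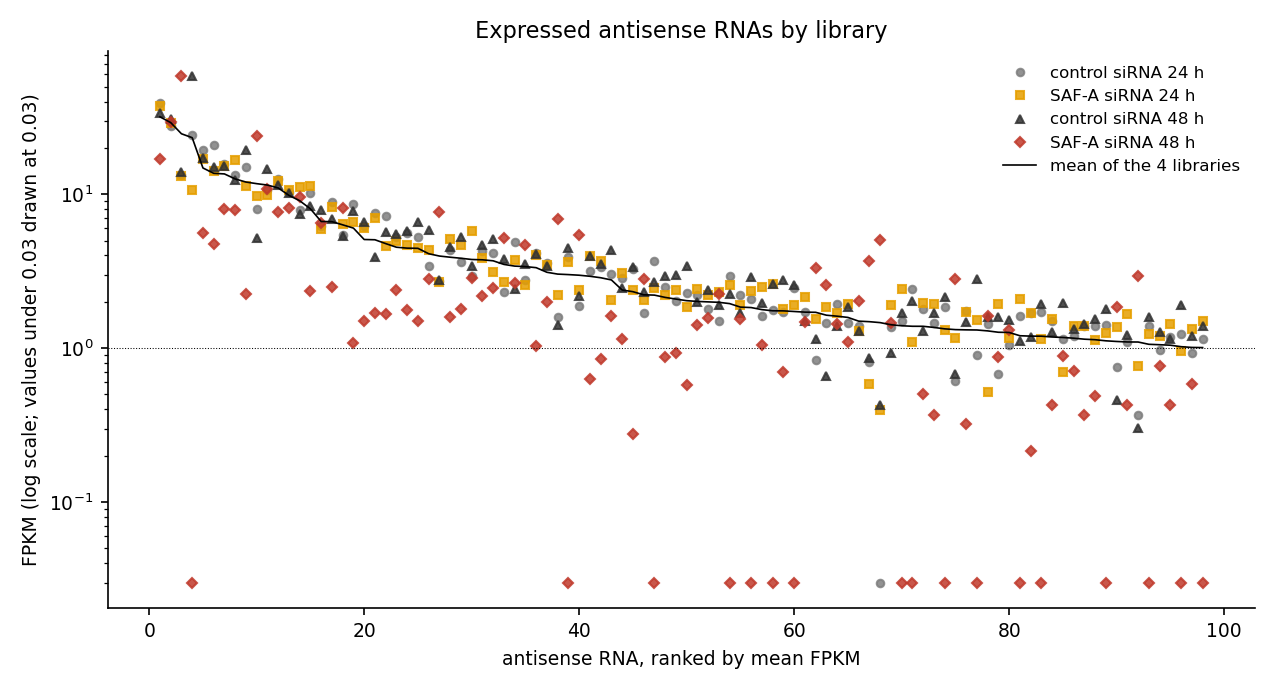
FPKM of the 98 antisense RNAs in each of the 4 libraries (log axis), ranked by their mean, with values under 0.03 drawn at 0.03 and a dotted line at 1 FPKM. The 3 deep libraries follow the mean closely, whereas the SAF-A 48 h library scatters and lists 17 of the RNAs at 0.

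The limit of 1 FPKM used the SAF-A 48 h library too, and this touched who is described. PSMB8-AS1 and HLA-F-AS1 were just inside, both at a mean of 1.01 FPKM, and KDM4A-AS1 at 0.993 and ASMTL-AS1 at 0.992 just outside. By length, DIAPH3-AS2 at 367 nt and PCNA-AS1 at 384 nt were the shortest inside. ALOX12-AS1, DIAPH3-AS2, FOXN3-AS1, LPP-AS2 and ATP2B1-AS1 passed only because of a high SAF-A 48 h value, and 22 symbols outside averaged 1 FPKM or more in the other 3 libraries. Of the 10 antisense RNAs counted below as higher at 48 h, 4 belong to those 5, so their high value is part of how they were chosen.

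FGD5-AS1, on chr3:14984286-14989948 (minus strand), had the highest mean. It stood at 39.4, 37.2, 33.8 and 16.8 FPKM (control then SAF-A at 24 h, control then SAF-A at 48 h, the order of every list of 4 values). The 3 deep libraries lay close together and the SAF-A 48 h library below them. Its sense partner FGD5, an exchange factor of endothelial cells, was at or near 0 in all 4.

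PAX8-AS1 (chr2:113993104-114024600, plus strand) read 27.6, 28.8, 30.8 and 29.5 FPKM and was nearly level. It lies inside PAX8, a transcription factor of thyroid and kidney, which had 1.15, 0.626, 1.26 and 0.239 FPKM. It was far above its partner in every library, and 1.43% of its exonic bases overlapped an opposite exon.

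NUTM2A-AS1 (chr10:88998424-89102315, minus strand) read 13.3, 13.0, 13.9 and 58.5 FPKM. The SAF-A 48 h value stood apart from 3 nearly equal ones. NUTM2 genes have near-identical copies, and how reads that map to several places were counted is not given in the sources used here, so its level is uncertain.

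WAC-AS1 (5376 nt), which starts 1138 bases from the start of the chromatin adaptor gene WAC and shares no exon bases with an opposite gene, read 19.4, 16.9, 17.3 and 5.59 FPKM. MAGI2-AS3, the longest at 8492 nt, read 20.8, 14.1, 14.9 and 4.73 FPKM. AGAP2-AS1 read 15.7, 15.2, 15.3 and 8.05 FPKM, OIP5-AS1 13.3, 16.7, 12.3 and 7.90 FPKM. In all 4 of these RNAs the SAF-A 48 h library was the lowest.

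RGMB-AS1, inside RGMB (a co-receptor of bone morphogenetic proteins), read 15.0, 11.3, 19.4 and 2.25 FPKM. GREM1-AS1 starts 861 bases downstream of the start of GREM1, a secreted inhibitor of bone morphogenetic proteins, and read 8.06, 9.77, 5.17 and 23.8 FPKM. The SAF-A 48 h library was thus lowest for the former and highest for the latter.

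**Figure D2:**
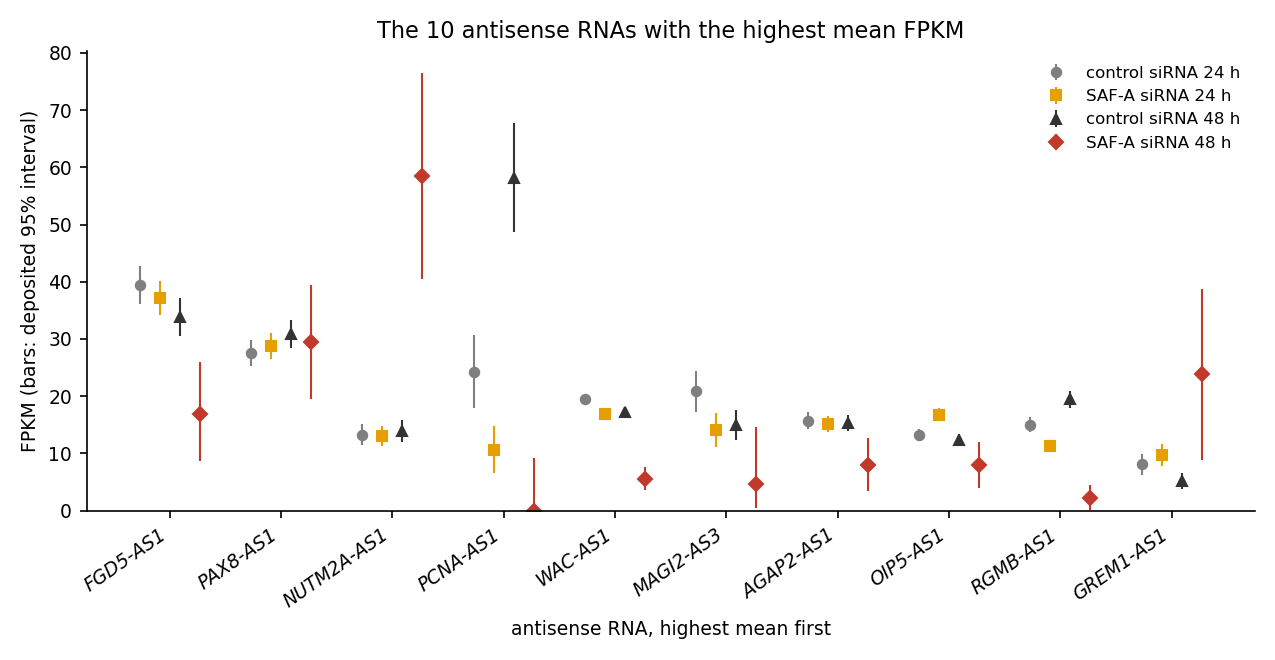
FPKM of the 10 antisense RNAs with the highest mean, in the 4 libraries, with the deposited 95% interval as bars. Bars of the SAF-A 48 h library are wide because of its depth. The SAF-A 48 h value was the highest of the 4 libraries for NUTM2A-AS1 and GREM1-AS1. It was the lowest for FGD5-AS1, PCNA-AS1, WAC-AS1, MAGI2-AS3, AGAP2-AS1, OIP5-AS1 and RGMB-AS1.

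At 24 h of SAF-A siRNA the antisense RNAs were close to their control level. A change is given as a difference of log2(FPKM + 1), which understates changes of low values, and counted when it reached 2-fold. None of the 98 was at least 2-fold higher, where 0.389% of tested genes were, and 1 was at least 2-fold lower, where 0.244% were. The median difference was 0.02, against -0.07 for all tested genes, and 91 of the 98 were within 0.5 of 0 on the log2 scale. Deposited intervals were apart for 15 of the 98, with 8 above and 7 below 0, so some of these small differences exceeded the bounds of single libraries. The same count was not made over all tested genes. Of all 98, 50 were above and 48 below 0. Rescaling to TPM turned these into 38 and 60 and the median into -0.12, with all tested genes at -0.23, so the antisense RNAs stayed slightly above all genes. Intergenic noncoding RNAs with LINC names gave the same picture, with 0 of 49 past 2-fold either way and a median of 0.07.

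The antisense RNA past 2-fold at 24 h was PCNA-AS1 (chr20:5100232-5100615, plus strand), a single exon of 384 nt opposite PCNA, the sliding clamp of DNA replication. It read 24.3, 10.7, 58.2 and 0 FPKM (the last is a value under 0.001 FPKM, taken as 0), a difference of -1.12 at 24 h with deposited intervals that did not overlap. No pair of libraries had a like value. PCNA read 212, 174, 193 and 156 FPKM and differed by -0.28 at 24 h. All 384 bases lie in exon 1 of PCNA transcript NM_182649, and 85.7% of them in exon 2 of NM_002592, so reads of PCNA-AS1 and PCNA cannot be told apart if strand was not kept.

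Others nearest to the threshold at 24 h were NR2F2-AS1 at 0.80 and VIM-AS1 at 0.78, HIF1A-AS2 at -0.70 and MYLK-AS1 at -0.68. VIM-AS1, opposite the intermediate filament gene VIM, read 2.96, 5.79, 3.44 and 2.87 FPKM, with 32.2% of its bases in opposite exons, and VIM stood at 1845 to 3312 FPKM in the SAF-A libraries. HIF1A-AS2 lies mainly in the last exon of HIF1A, a transcription factor of the oxygen response, and read 2.41, 1.10, 2.04 and 0 FPKM while HIF1A read 82.8, 85.4, 86.8 and 133 FPKM. GAS5-AS1 read 7.19, 4.59, 5.64 and 1.68 FPKM, opposite GAS5, itself a noncoding host of small nucleolar RNAs.

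At 48 h more of the antisense RNAs were lower than higher. In the SAF-A library 38 were at least 2-fold below the control and 10 at least 2-fold above, where 18.5% of tested genes were lower and 14.3% higher, that is 38.8% against 18.5% lower and 10.2% against 14.3% higher. The median difference was -0.80, against -0.11 over all tested genes, and 75 of 98 were below 0. The 49 LINC RNAs had 7 higher and 6 lower and a median of -0.25. Deposited intervals did not overlap for 26 of the 38 and 4 of the 10, but 13 of the 17 values at 0 carry an upper bound of 0, so this criterion adds nothing for those. Without the values at 0, 25.9% of 81 antisense RNAs were lower and 12.3% higher, against 16.9% and 14.6% of 10830 tested genes. The medians were then -0.55 and -0.08, a narrower gap, and intervals were apart for 11 of the 21 lower.

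**Figure D3:**
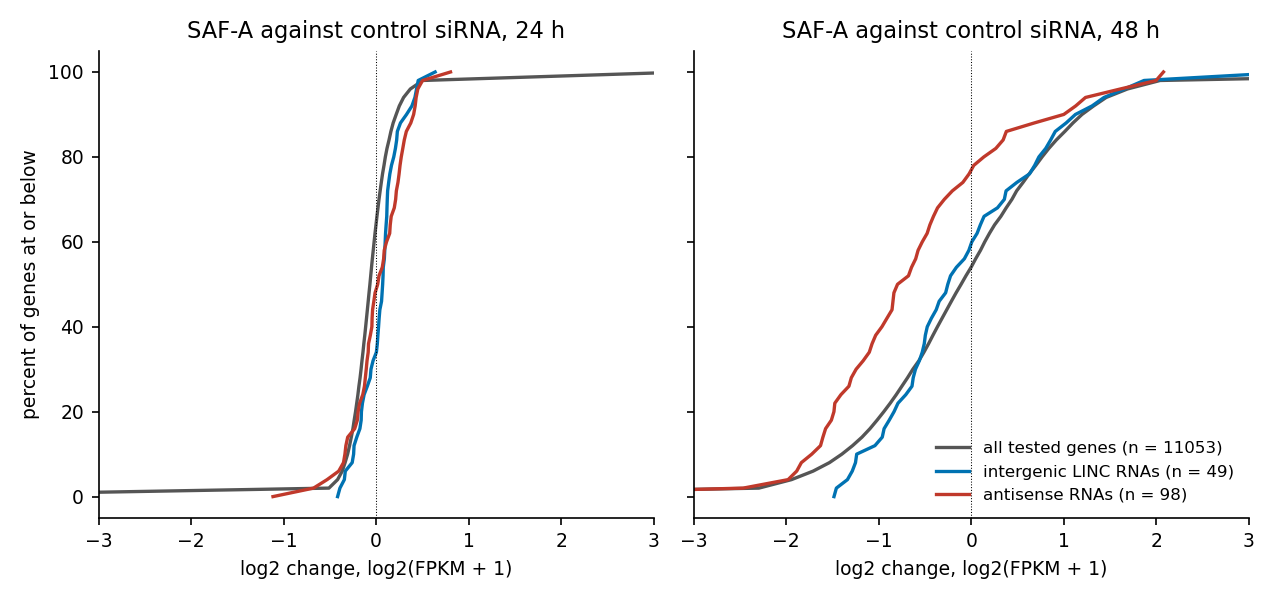
Percent of genes at or below each log2 change (SAF-A against control siRNA) at 24 h and at 48 h, for the 98 antisense RNAs, 49 LINC RNAs and 11053 tested genes. At 24 h the curves nearly coincide. At 48 h the antisense curve lies to the left, with a median of -0.80 against -0.11 for all tested genes.

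Read numbers in the shallow library bear on all of this. An antisense RNA had a median of 2.02 estimated reads there, against 99.4, 109.8 and 108.1 in the other libraries, and 1 read was worth a median of 0.484 FPKM. Scaling the control 48 h reads to its depth gave 10 or more expected reads for 26 antisense RNAs and fewer than 3 for 36. Of the 17 listed at 0, 10 had fewer than 3 expected reads, so 0 says little there. Of the 10 higher, 9 had fewer than 3 expected reads.

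Where 10 or more reads were expected, 12 of 26 antisense RNAs were at least 2-fold lower and 1 higher, where 18.5% of the 9076 tested genes with that many expected reads were lower and 13.6% higher. Their median was -0.91, against -0.11 for those genes, and 24 of the 26 were below 0. Intervals were apart for 10 of the 12. With 3 to 10 expected reads, 15 of 36 were lower and none higher, against 18.3% and 12.8% of genes in that range. Of LINC RNAs with 10 or more expected reads, 3 of 9 were lower and none higher, with a median of -0.62, which lies between the other medians.

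**Figure D4:**
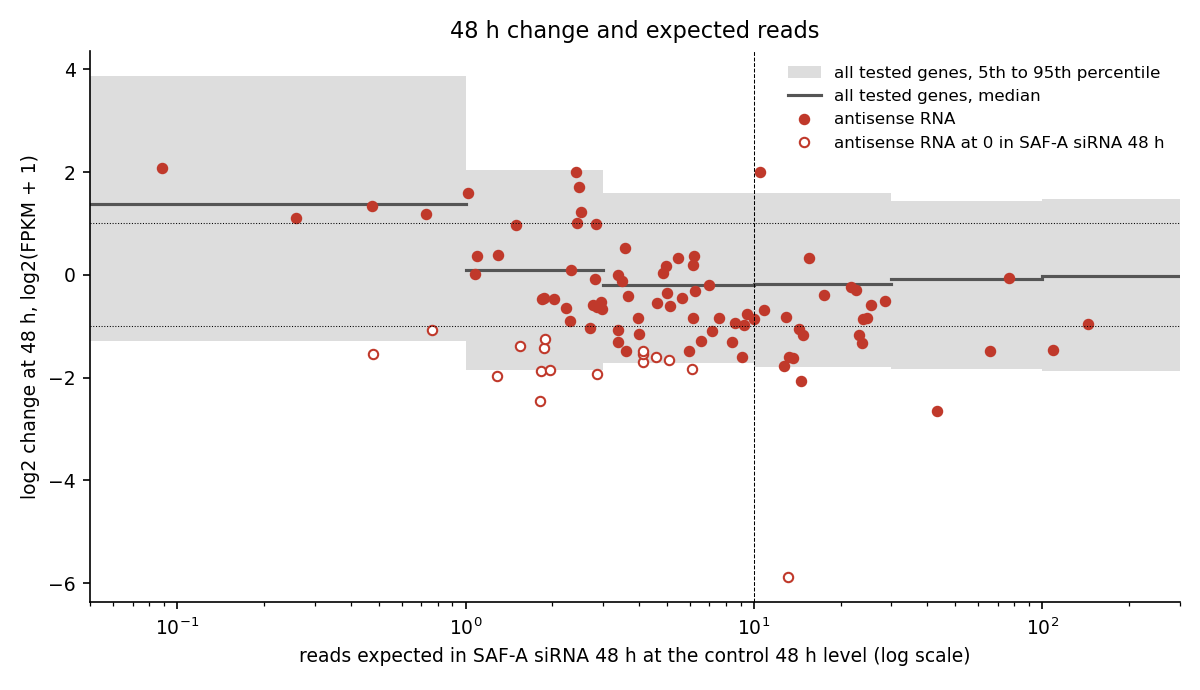
Log2 change at 48 h of each antisense RNA against the reads expected in the SAF-A 48 h library at the control level (log axis), over the 5th to 95th percentile and median of all tested genes in bands of expected reads. Open circles are values at 0. To the right of 10 reads (dashed), 24 of 26 antisense RNAs lie below 0, most of them inside the band of all genes.

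By level, 30 of 77 antisense RNAs with a mean under 5 FPKM were lower and 8 higher, against 22.6% and 8.11% of tested genes in that range. From 5 FPKM up, 8 of 21 were lower and 2 higher, against 16.7% and 17%. In each of 4 equal classes of G and C content and each of 4 classes of spliced length among the genes with 10 or more expected reads, the antisense median was below that of all genes. The smallest such gap was in the second length class, -0.67 for 6 antisense RNAs against -0.10 for 2268 genes.

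The antisense RNAs described next were lower at 48 h and are named after genes of unlike roles. RGMB-AS1 had 43.3 expected and 5.01 estimated reads and differed by -2.65, the largest decrease among those not at 0. MRPL20-AS1, opposite a mitochondrial ribosomal protein gene, read 8.66, 6.62, 7.72 and 1.07 FPKM and differed by -2.07. NNT-AS1, head to head with the mitochondrial transhydrogenase NNT, read 3.27, 2.38, 3.37 and 0.277 FPKM and differed by -1.78.

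ERCC6L2-AS1 (8014 nt) read 3.15, 3.94, 3.99 and 0.631 FPKM and differed by -1.61. THUMPD3-AS1, which has no opposite exon bases, read 6.24, 6.01, 6.57 and 1.49 FPKM and differed by -1.60. WAC-AS1 had 109 expected and 35.2 estimated reads and differed by -1.47. In these 3 RNAs the control and 24 h values lay within a narrow range and the SAF-A 48 h value below it.

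PCNA-AS1 was listed at 0 with 13.2 reads expected and a deposited upper bound of 9.12 FPKM. GABPB1-AS1, opposite a subunit of the GA-binding protein, read 2.02, 2.38, 3.00 and 0.926 FPKM and differed by -1.06. PGM5-AS1 read 3.91, 3.62, 4.48 and 0 FPKM, with only 1.81 reads expected. FGD5-AS1, with the most expected reads, 144, and 73.6 estimated reads, differed by -0.96 and so missed the 2-fold limit.

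Others of high depth hardly moved. PAX8-AS1 had 76.5 expected and 77.8 estimated reads. EPB41L4A-AS1, the host of SNORA13, read 10.7, 9.80, 14.5 and 10.8 FPKM, SVIL-AS1 10.4, 10.6, 10.2 and 8.13 FPKM, and PSMA3-AS1 6.20, 5.97, 7.87 and 6.54 FPKM. TTN-AS1, with 70.4% of its bases opposite exons of the muscle gene titin, read 2.78, 2.58, 3.51 and 4.68 FPKM. These are the 5 of the 26 within 0.5 of 0 on the log2 scale, all with overlapping deposited intervals.

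Apart from NUTM2A-AS1, the antisense RNAs that were higher at 48 h rest on few reads. NUTM2A-AS1 differed by 2.0, with 10.5 expected and 44.3 estimated reads. GREM1-AS1 differed by 2.01 with 2.42 expected and 11.1 estimated reads, and PRR34-AS1, at 1.58, 2.21, 1.42 and 6.89 FPKM, by 1.71 with 2.47 and 12. ATP2B1-AS1, named for a calcium pump of the plasma membrane, had 1.02 expected and 10.0 estimated reads. It passed the level limit only through its SAF-A 48 h value. Among the higher RNAs, deposited intervals were apart for NUTM2A-AS1, GREM1-AS1, PRR34-AS1 and ATP2B1-AS1 alone. DIAPH3-AS2 at 0, 0.399, 0.428 and 5.03 FPKM rests on 1.04 estimated reads in the SAF-A 48 h library.

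With time in the control libraries, 2 antisense RNAs were at least 2-fold higher at 48 h than at 24 h and none lower, where 0.561% and 0.425% of tested genes were. The median difference was 0.06, against 0.03. They were PCNA-AS1 at 1.23 and ADAMTSL4-AS1 at 1.00 (0.906, 1.52, 2.82 and 0 FPKM). With means of at least 2 FPKM, TRHDE-AS1 at 0.64 and SCAMP1-AS1 at 0.52 followed, and LOXL1-AS1 at -0.82, TRIM52-AS1 at -0.79 and GREM1-AS1 at -0.56 were lowest. LOXL1-AS1, opposite a cross-linking enzyme of elastic fibres, read 7.60, 7.04, 3.89 and 1.69 FPKM.

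With time under SAF-A siRNA, 7 antisense RNAs were at least 2-fold higher and 37 lower, where 15.5% and 16% of tested genes were. This comparison shares the SAF-A 48 h library with the one against the control at 48 h, and its median was -0.79, against -0.01 for all tested genes. RGMB-AS1 differed by -1.91 and NUTM2A-AS1 by 2.08.

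Compared with their sense partners, the antisense RNAs were mostly the lower of the pair. In FPKM, a level per length, 70 of 96 had a mean below that of the partner, 57 of them in every library, and 16 were above it in every library. The partner was itself among the tested genes in 81 pairs, where the antisense mean was a median of 28.0% of the partner mean (median partner 11.0 FPKM). In the other 15 pairs the partner was under 1 FPKM, as for FGD5-AS1, PAX8-AS1, NUTM2A-AS1, MAGI2-AS3 and AGAP2-AS1, all among the 10 highest antisense RNAs.

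The sense partners had a median change near 0 at 48 h. Of the 81, 13.6% (11) were higher and 19.8% (16) lower, close to the 14.3% and 18.5% of all tested genes, with a median of -0.07, while their antisense RNAs had a median of -0.69. The antisense change was below the partner's in 58 of 81 pairs at 48 h and in 33 of 81 at 24 h. Across pairs, which share the same libraries, the Spearman correlation of the 2 changes was 0.001 at 24 h and -0.07 at 48 h. With time it was 0.14 in the control and -0.11 in the SAF-A libraries. At 24 h no partner was past 2-fold.

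At 48 h both genes of a pair were at least 2-fold lower in 6 pairs and both higher in 1, ATP2B1-AS1 with ATP2B1. ATP2B1-AS1 is described only because of its high SAF-A 48 h value, so its increase is part of how it was chosen. In 3 pairs the antisense RNA was lower and the partner higher, and in 2 the reverse. NR2F1-AS1, which shares no opposite exon bases, read 8.88, 8.22, 6.92 and 2.50 FPKM, and the nuclear receptor gene NR2F1 27.5, 21.6, 26.2 and 2.2 FPKM. RGMB went from 54.3 FPKM in control 48 h to 16.0 in SAF-A 48 h, along with RGMB-AS1.

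Head-to-head pairs, those shown above included, went different ways at 48 h. TAPT1-AS1 read 3.61, 4.66, 5.28 and 1.79 FPKM and TAPT1 5.60, 4.15, 6.73 and 2.62 FPKM, both lower, with differences of -1.17 and -1.09. HHIP-AS1 and HHIP, whose starts lie 23 bases apart, were both lower too, with differences of -1.29 and -1.15. ZBED5-AS1 read 1.88, 2.40, 2.19 and 5.42 FPKM, a difference of 1.01 on 6.02 estimated reads, and ZBED5, a gene derived from a transposase, 9.66, 9.53, 10.5 and 3.94 FPKM, a difference of -1.22. SCAMP1-AS1 read 2.33, 2.69, 3.78 and 5.19 FPKM and SCAMP1, a protein of secretory carriers, 9.88, 10.8, 8.53 and 11.7 FPKM, neither past 2-fold. TRIM52-AS1 read 4.87, 3.72, 2.41 and 2.64 FPKM, and TRIM52 1.52, 2.02, 2.31 and 0 FPKM.

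**Figure D5:**
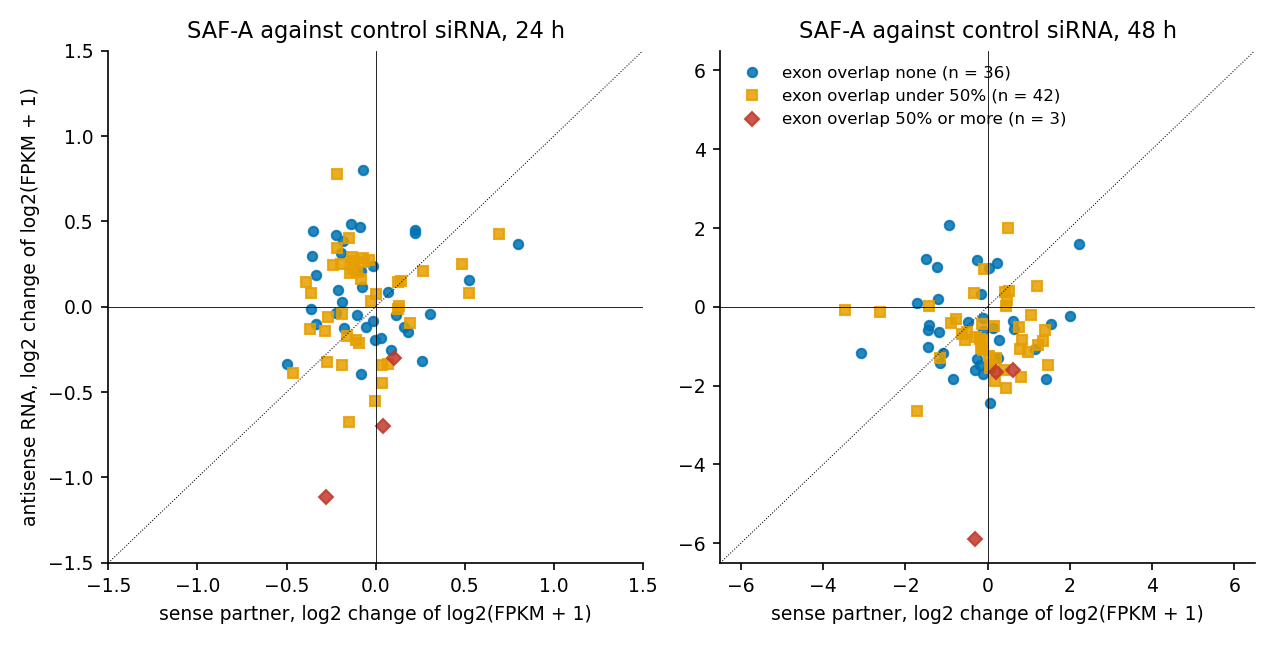
Log2 change of each antisense RNA against that of its sense partner at 24 h and at 48 h, for 81 pairs, coloured by the share of antisense exon bases that overlap any exon on the opposite strand (the dotted line marks equal change). At 48 h 58 of 81 points lie below the line and the points show no common slope.

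Among pairs with means of at least 2 FPKM for both genes, those that differed most at 48 h, apart from PCNA-AS1, were those of TMEM147, RASSF8, NNT and MRPL20. MRPL20 read 92.5 FPKM in control and 127 in SAF-A siRNA, and NNT 22.0 and 39.7 FPKM, while their antisense RNAs were lower, with differences from the partner's change of -2.53 and -2.60. TMEM147, a membrane protein of the endoplasmic reticulum, went from 46.1 to 128 FPKM while TMEM147-AS1 went from 3.42 to 0.578 FPKM, the latter on 1.00 estimated read. RASSF8-AS1 went the other way, at 2.72, 2.68, 2.75 and 7.70 FPKM, while RASSF8 went from 14.9 to 4.62 FPKM. The RASSF8-AS1 value rests on 7.03 estimated reads with 2.52 expected, and its 48 h intervals overlapped. PSMA3, a proteasome subunit, went from 141 to 571 FPKM while PSMA3-AS1 read 7.87 and 6.54 FPKM. At 24 h the widest gaps, with means of at least 2 FPKM, were 1.00 for VIM-AS1, -0.84 for PCNA-AS1 and 0.66 for TAPT1-AS1.

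Lower antisense RNAs were counted in each class of exon overlap. Of the 39 antisense RNAs without opposite exon bases, 15 were at least 2-fold lower and 6 higher at 48 h (median -0.58). With overlap under 50% there were 20 and 4 of 54 (median -0.83), and with 50% or more 3 and 0 of 5. Over all tested genes 18.5% were lower and 14.3% higher, so the share higher without overlap (15.4%) was near that of all genes and the share lower (38.5%) above it. Where 10 or more reads were expected, 5 of 9 without overlap and 7 of 17 with overlap were lower, against 18.5% of genes with that many reads, with medians of -1.17 and -0.86. Lower levels at 48 h were measured also where no opposite exon is annotated. The class counts exons only, and some of its members lie partly across the partner, as PSMA3-AS1 and SERTAD4-AS1 do. Reads from introns of an opposite gene were not assessed. The correlation with the partner at 48 h was -0.04 in 36 pairs without overlap and -0.09 in 42 with less than 50%, and -0.25 in 44 head-to-head pairs against 0.15 in 37 others.

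Factors that remove nuclear noncoding RNA were measured in all libraries. Of 24 such genes, subunits of the exosome, its nuclear cofactors and cap-binding partners, none was past 2-fold at 24 h or with time in the control. At 48 h 2 were higher and 5 lower, with a median of -0.26, and 2 and 5 with time under SAF-A siRNA. These counts are near the shares of all tested genes (14.3% higher and 18.5% lower at 48 h, 15.5% and 16% with time). XRN2, the nuclear exonuclease that acts from the 5′ end, read 48.3, 47.0, 48.4 and 137 FPKM, and EXOSC8 36.3, 35.6, 24.0 and 57.2 FPKM. EXOSC2, EXOSC3, EXOSC4, EXOSC6 and ZC3H18 were lower, EXOSC4 by the most, at 31.4, 29.0, 33.2 and 5.95 FPKM. Their part in the antisense levels was not tested.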

How the data were processed

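Per the file headers, the authors' Cufflinks output gives each library FPKM values with 95% bounds, in a table of genes and a file of transcripts. TopHat2 2.0.10, Bowtie2 2.1.0, Cufflinks 2.2.1, Cuffdiff and hg19 are named in the submitters' processing notes. The score column of the deposited transcript files was not analysed, and their coverage served only to derive depth. The treatment of multiply mapped reads and the use of strand are not given in the sources used here.

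Each of 47338 rows is a RefSeq accession, and 97.1% matched a symbol in RefSeq (GRCh38.p14, names only). FPKM and bounds were summed per symbol, so summed bounds are too wide. Estimated reads are FPKM times effective length (fragments of 200 ± 80 nt) times mapped reads, and values under 0.001 FPKM count as 0. Estimated reads and deposited bounds come from 1 library per group, so neither covers variation between replicates. The reads carry no molecular identifiers, and no count model was fitted. Changes are differences of log2(FPKM + 1), with no test, as each group has 1 library. Exons, strands and starts come from the transcript files. On GRCh37, 386 of 387 introns of the antisense RNAs had known splice ends. Python 3.11.15, pandas 2.3.3 and numpy 2.4.6 were used, and the counting functions were tested on simulated data.

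The antisense RNAs and the lists were chosen with earlier results of these data known. Named antisense RNAs are the 10 highest, those past 2-fold at 24 h, the 6 highest and 6 lowest at 48 h with intervals apart and 2 FPKM or more on average, the 3 highest and 3 lowest with time in the control (2 FPKM or more), the 10 highest without overlap, the 5 least like their partner at each time (2 FPKM or more for both genes) and those next to a limit. NR2F2-AS1, HIF1A-AS2, MYLK-AS1, TTN-AS1, A1BG-AS1, ADAMTSL4-AS1, ATP2B1-AS1, ZBED5-AS1 and those named only for a count or a feature were added after their values were seen. Alternatives were another pseudocount, other limits on level, length and fold, TPM, centring, intervals and overlap. Windows of other head-to-head pairs are not reported here.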

Additional observations from a re-analysis of the deposited data

Results flagged for a closer look

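The change from 24 h to 48 h went opposite ways under the 2 siRNAs, at least 2-fold in each, for PCNA-AS1 and ADAMTSL4-AS1. The difference between the SAF-A and control changes was -4.77 on the log2(FPKM + 1) scale for PCNA-AS1 and -2.34 for ADAMTSL4-AS1. Both were listed at 0 in the SAF-A 48 h library, with 13.2 and 2.86 reads expected at the control 48 h level. PCNA-AS1 was lower in SAF-A 24 h, at 10.7 FPKM, and 1 read in SAF-A 48 h was worth 4.42 FPKM. Its deposited intervals in SAF-A 24 h (6.63 to 14.7 FPKM) and SAF-A 48 h (0 to 9.12 FPKM) overlapped. The difference was not tested, since each group has 1 library.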

How the results depend on the processing

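Of 124 alternative values, 82 stayed within 1.5 times the count reported, or for correlations within its 95% interval (Fisher), and 42 did not. Counts were compared without regard to the number of antisense RNAs in each alternative, so this tally does not measure stability. For those lower at 48 h (38.8%), 8 of 21 (38.1%) and 12 of 26 (46.2%) fell outside 1.5 times. In contrast, 57 of 687 with no minimum on FPKM fell within. At 24 h, a pseudocount of 0.1 FPKM and a 1.5-fold threshold each gave 2 higher and 3 lower. A length of at least 1000 nt, an exon overlap under 10% and leaving out values at 0 in SAF-A 48 h each gave 0 lower, since each removes PCNA-AS1. Against the control at 48 h, a mean of at least 5 FPKM gave 2 higher and 8 lower of 21. Intervals that must not overlap, and a length of at least 1000 nt, each gave 4 higher. A pseudocount of 0.1, TPM or centring kept both counts at 48 h within 1.5 times. Alternatives added after seeing the data gave 6 higher of 115 with the mean taken over the other 3 libraries. They gave 1 higher and 12 lower of 26 with at least 10 expected reads, and 21 lower of 81 without values at 0. With time in the control, 4 were higher with a pseudocount of 0.1 or a 1.5-fold threshold. There was 1 higher with a mean of at least 5 FPKM, centring, a length of at least 1000 nt, an overlap under 10% or at least 10 expected reads, and 0 without values at 0. There was 1 lower with a pseudocount of 0.1 or no minimum on FPKM, and there were 2 lower with a 1.5-fold threshold. With time under SAF-A siRNA, the higher counts were 11 with a pseudocount of 0.1 or no minimum, 13 with 1.5-fold, 3 with intervals apart, and 2 with a mean of at least 5 FPKM or a length of at least 1000 nt. They were 4 with the mean over the other 3 libraries and 1 with at least 10 expected reads. The lower counts were 10 with a mean of at least 5 FPKM, 56 with 1.5-fold, 24 with intervals apart, 13 with at least 10 expected reads and 21 without values at 0. The correlation with the partner at 48 h was 0.455 over the 12 pairs with both means of at least 5 FPKM, and its cause was not tested. An overlap of at least 50% held for 5 antisense RNAs, and 25 started within 300 bases of the partner. TPM lowered the median of all tested genes at 24 h from -0.07 to -0.23, and that of the antisense RNAs from 0.02 to -0.12. With time under SAF-A siRNA it moved all tested genes from -0.01 to 0.18 and the antisense RNAs from -0.79 to -0.64, and centring moved them to -0.13 and -0.91. No paired analysis was possible because each group has 1 library. The depth of 1 library limits every value at 48 h under SAF-A siRNA.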
